A study of Apis mellifera with 12 samples.

Results

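Whole brain RNA was set against the summed RNA of dissociated brain cells in female honeybees (Apis mellifera). The comparison took all 12 libraries of the series, 6 bulk libraries of homogenised brains and 6 single-cell libraries of brain cell suspensions, with 2 of each kind for adult queens, nurses and foragers. The barcodes of each single-cell library that held 200 to 5000 genes, at least 500 UMIs (unique molecular identifiers, which count molecules) and less than 15% of UMIs on features with the mitochondrial prefix were summed, which kept 17415 to 22019 barcodes a library. Genes were matched by symbol or gene number. Of the 12292 single-cell features and 11345 bulk genes, 11273 could be matched, of which the 9 major royal jelly protein genes Mrjp1 to Mrjp9 were left out of the totals because they took 0.00815% to 41.9% of the matched counts in whole brain libraries.

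Each whole brain sample was a pool of 5 brains in Trizol, turned into a paired-end library of fragmented transcripts. The cells came from separate pools of brains, digested with papain and passed through a strainer, and their RNA was tagged near the 3′ end in droplets. Nurses and foragers are the subcastes of workers that tend brood and collect food, both taken from one colony, and the queens had been reared by hand and mated. All bees were adults of unstated age. The tissue and the assay changed together, so their parts in a difference cannot be told apart, and neither can fewer cells of a type and less RNA per cell. Replicates were separate samples of one caste and assay.

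As background, a suspension for droplets keeps mainly the cell body with its nucleus, while neurites and the thin processes of glia can be torn off and tough or large cells can be lost. In insects the neuronal cell bodies lie in a rind around the neuropil, Kenyon cells form the mushroom bodies that serve learning, and glia wrap the neurons, clear transmitters and form the blood-brain barrier. A homogenised brain also carries whatever adheres to it, such as fat body, blood cells, gland, trachea, muscle and eye tissue.

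The matched genes without Mrjp1 to Mrjp9 held 8790000 to 14256559 counts per whole brain library and 126186707 to 149929130 UMIs per cell library. Values are given as CPM, counts scaled to a total of 1000000. Replicates of one caste had a Spearman correlation over genes of 0.987 to 0.988 in whole brain and 0.994 to 0.996 in cells, and a whole brain and a cell library of one caste had 0.698 to 0.782. The tests rest on the spread between libraries, and a queen, nurse and forager pair weighed equally in each mean.

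Of 11101 genes tested, 2671 (24.1%) were called higher and 3085 (27.8%) lower in whole brain RNA than in cells, with a call needing an adjusted p under 0.01 in edgeR's quasi-likelihood test and a log2 fold over 1 in size. The log2 folds below are whole brain over cells, with the standard error of the fit after ±, over 6 libraries per assay. Their median over all genes was -0.15, and their quartiles were -1.22 and 1.02. In 59.5% of genes tested the 6 whole brain libraries did not overlap the 6 cell libraries, and list counts below are read against these shares. Counting Mrjp1 to Mrjp9 in the totals moved the median by -0.23 and gave 2311 genes higher and 3668 lower.

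Neuronal markers were lower in whole brain RNA. The study's marker of neurons elav, an RNA-binding protein of neuronal nuclei (linkage group 1, 19394430 to 19436388, assembly Amel_HAv3.1), had 24.8 and 12.6 CPM in queen, 37.998 and 62.4 in nurse and 47.8 and 52.3 in forager whole brains, against 3557 and 3367 CPM in queen, 4228 and 3808 in nurse and 3996 and 4079 in forager cells. Every cell library thus lay far above every whole brain library, with a log2 fold of -6.73 ± 0.21, adjusted p = 1.41e-10. All 4 members of the list of neuronal and presynaptic genes were called lower, among them Syt1, the calcium sensor of transmitter release, at -3.53 ± 0.14, the active zone gene brp at -3.03 ± 0.18 and the membrane fusion gene Syx1A at -2.402 ± 0.104. Their summed level was 314 to 749 CPM in whole brain libraries and 6889 to 8461 CPM in cell libraries.

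Kenyon cell markers followed, with 5 of 6 members called lower and a list median of -2.79. The transcription factor mblk-1 of large-type Kenyon cells had 194 to 357 CPM in whole brain and 3910.4 to 6015 CPM in cells, a log2 fold of -4.12 ± 0.16. PLCe, a phospholipase C, stood at -3.73 ± 0.16 and mub, an RNA-binding protein, at -3.88 ± 0.18. E74 and FoxP, both transcription factors, had -1.84 ± 0.07 and -1.23 ± 0.08, and Pkc, a protein kinase C, with -0.83 ± 0.12, did not reach the fold needed for a call. Removing the trend of the fold with gene span, described below, took E74 and FoxP out of the calls and turned FoxP to 0.48. The names of these genes came from the study's own annotation of the same cells, so the list is not independent evidence of its direction.

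Transmitter synthesis genes were lower by less. Of 10 members, 6 were called lower and none higher, with a median of -1.25: the vesicular transporters VGlut (-1.97 ± 0.13), VGAT (-1.83 ± 0.16) and VAChT (-1.66 ± 0.13), the enzymes Gad1 for GABA (-1.69 ± 0.103) and ChAT for acetylcholine (-1.28 ± 0.13), and ple, tyrosine hydroxylase (-1.23 ± 0.201). The monoamine transporter Vmat had 0.61 ± 0.13 and the dopamine transporter DAT 0.86 ± 0.16, neither called. Removing the span trend ended the calls of ChAT and of the optic lobe gene hth. Among 8 optic lobe markers 5 were called lower and 2 higher, the homeobox gene vsx1 at -3.96 ± 0.098 and the nuclear receptor svp at 1.95 ± 0.14. Of 4 markers of olfactory projection neurons, otp and acj6 were called lower, at mean levels of 0.742 and 0.893 CPM in whole brain and 5.46 and 7.95 CPM in cells. The other members, C15 and oaz, had positive folds and were not called, at 0.51 to 1.24 and 0.51 to 0.68 without each library. C15 gained a call in DESeq2, and oaz gained one with the span trend removed.

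Ion channels of neurons were mostly lower. Of 8 channel genes 6 were called lower, with a median of -2.14. The pH-sensitive chloride channel pHCl had 13.6 and 11.98 CPM in queen, 18.4 and 22.5 in nurse and 16.5 and 13.1 in forager whole brains, against 329 and 394 CPM in queen, 315 and 334 in nurse and 324 and 323 in forager cells, and Para, the voltage-gated sodium channel, had 106 to 199 CPM in whole brain and 2362 to 2785 CPM in cells, with log2 folds of -4.42 ± 0.098, adjusted p = 1.72e-11 and -4.06 ± 0.13, adjusted p = 1.48e-10. Both genes had no overlap between the assays. The glutamate-gated chloride channel GluCl stood at -3.45 ± 0.13 and the calcium channel Cac at -2.802 ± 0.17, while the GABA receptor relative Grd had 0.98 ± 0.11 and was not called. With the span trend removed the median of the channel list was -1.39.

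Nicotinic acetylcholine receptor subunits split. Of 10 subunits, 6 were called lower, led by nAChRa1 with 9.31 to 22.1 CPM in whole brain and 406 to 529 CPM in cells (-5.04 ± 0.14), nAChRa7 (-4.45 ± 0.11) and nAChRa6 (-4.41 ± 0.14). The other way, nAChRa9 had 10.8 and 6.98 CPM in queen, 24.9 and 44.8 in nurse and 51.2 and 49.3 in forager whole brains, against 0.173 and 0.164 CPM in queen, 0.407 and 0.365 in nurse and 0.304 and 0.319 in forager cells, a log2 fold of 6.51 ± 0.197, adjusted p = 1.02e-10. Its neighbour on linkage group 9, nAChRb2, was also higher, at 3.32 ± 0.31. These were the nicotinic subunits called higher, and nAChRa8 and nAChRb1 were not called. With the span trend removed nAChRa3 (-0.31) and nAChRa4 (-0.27) lost their calls, which left 4 subunits called lower.

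Receptors for amines and adhesion proteins of synapses were lower without exception among the calls. Of 9 amine receptors 7 were called lower, from the serotonin receptor 5-ht7 (-3.31 ± 0.16) and the dopamine receptor DopR2 (-3.103 ± 0.098) to Dop1 (-1.02 ± 0.14), and the tyramine receptor TyrR stood at -2.54 ± 0.15. Dop1 lost its call under other scalings and without any one of 5 libraries, with log2 folds of -0.996 to -0.93 without them. All 6 adhesion genes were called lower, NLG-4 (-3.96 ± 0.16) and NLG-3 (-3.66 ± 0.09), both neuroligins, by most. With the span trend removed, only NLG-3 (-1.91) and NLG-4 (-2.11) kept their calls, Dscam, Abscam and NLG-5 fell short and Nrx-1 turned to 0.060. Dscam was also lost without the second queen whole brain library (-0.97), with all barcodes and in DESeq2. Removing the trend likewise ended the calls of 5-HT1 (-0.046) and Dop1 and turned 5-HT2beta to 0.104, which left 4 amine receptors called. The median was then, for the adhesion list, -0.45, that of the amine receptors -0.70 and that of the nicotinic subunits -0.33.

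**Figure D1:**
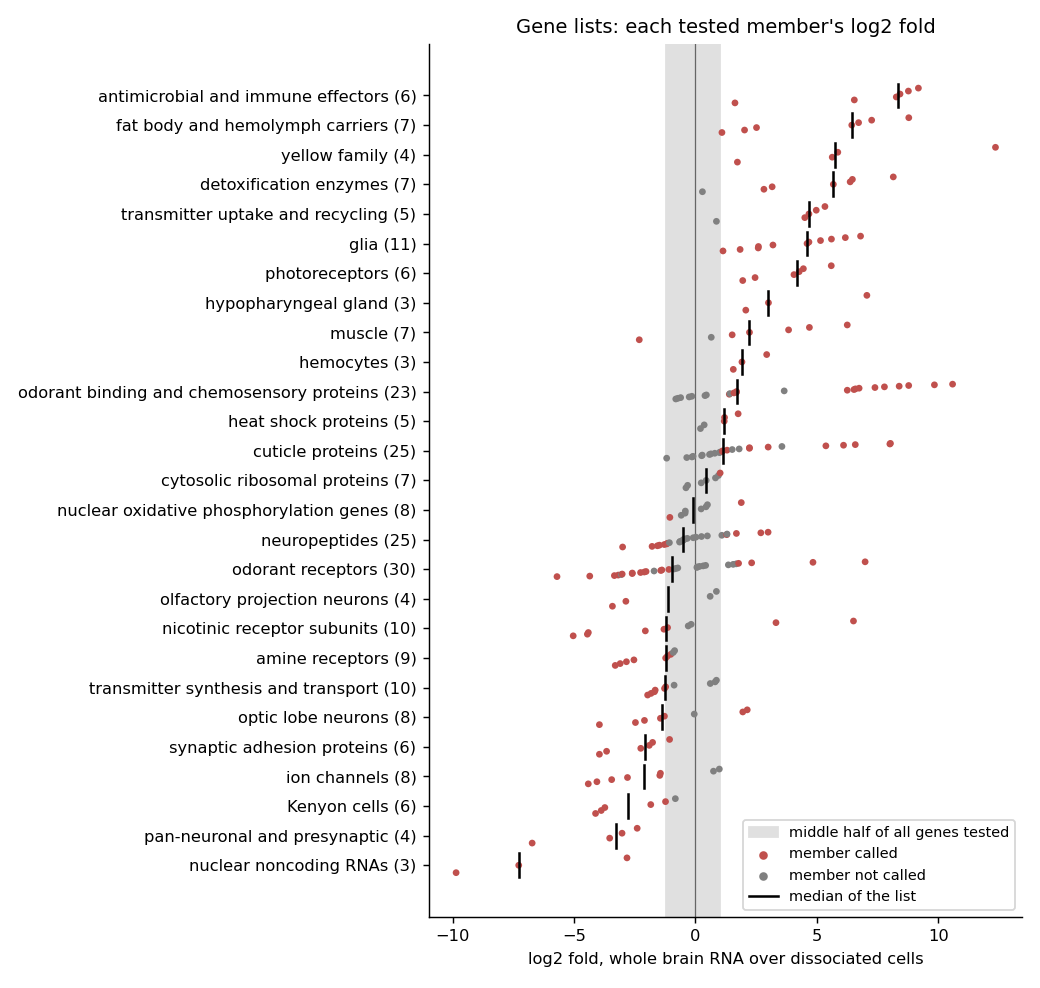
Log2 fold of whole brain RNA over dissociated cells (x axis) for each tested member of the gene lists (y axis, with the number of members tested), red where called and grey where not, with the list's median as a bar and the interquartile range of all genes tested as a grey band. Lists of neuronal markers and transmitter synthesis have medians from -3.28 to -1.13 and the glial list a median of 4.596.

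All 3 noncoding RNAs known from cell nuclei were called lower in whole brain, 1 of which, Ancr-1, was chosen after its values were seen. Kakusei (linkage group 2, 14402911 to 14410012), a noncoding RNA described from active neurons of honeybees, had 0.0701 and 0.0705 CPM in queen, 0.114 and 0 in nurse and 0.155 and 0.0817 in forager whole brains, against 39.6 and 55.03 CPM in queen, 108 and 102 in nurse and 73.2 and 77.99 in forager cells. The whole brain libraries together held only 6 counts of it and the cell libraries 60910 UMIs, and the log2 fold was -9.86 ± 0.21, adjusted p = 1.39e-11. Ks-1 (linkage group 1, 15831228 to 15848759), a nuclear RNA of Kenyon cells, had 1.47 to 3.44 CPM in whole brain and 373 to 431 CPM in cells (-7.28 ± 0.13, adjusted p = 5.92e-12). Its whole span lies inside that of TyrR, and no strand was given for the counting. Ancr-1 had 2852 and 3118 CPM in queen, 4149 and 3587 in nurse and 2327 and 1960.5 in forager whole brains and 22942 and 18621 CPM in queen, 20146 and 21402 in nurse and 20447 and 20069.7 in forager cells (-2.82 ± 0.14). In each of the 3 genes the assays did not overlap.

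Long noncoding RNAs as a class were shifted the same way. Of 1541 tested, 745 (48.3%) were called lower and 228 (14.8%) higher in whole brain, with a median log2 fold of -1.24. The 9549 protein-coding genes had a median of -0.04, with 24.4% called lower and 25.6% higher. A single lncRNA, LOC102653599, chosen after its values were seen, took 0.171% to 0.439% of the whole brain counts and 4.54% to 10.9% of the UMIs of the cells, the highest shares being those of the queen cells. Of its span, 92.2% is shared with another gene model, and the part of that in its values was not tested.

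Gene span moved with the fold. Protein-coding genes were put in 5 equal groups by span. In the group with the longest spans (13.4 to 869.7 kb from start to end, introns included) 40% were called lower and 24.8% higher, with a median of -0.48, against 19.7% and 20.2% and a median of -0.02 in the group with the shortest. The other 3 groups lay between 18.9% and 24.4% lower. Genes with at least 50% of their span shared with another gene model had 40.2% called lower, against 24.9% where no span was shared. Span is not transcript length, which was not given, and a library of fragments counts long transcripts more often than a library of 3′ ends does, a part that was not tested.

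**Figure D2:**
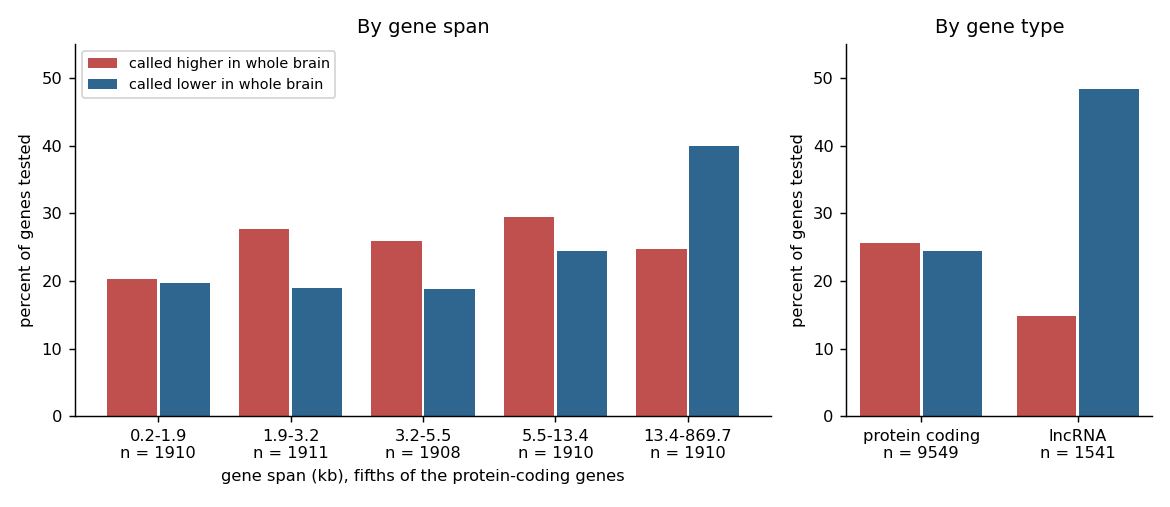
Percent of tested genes called higher (red) and lower (blue) in whole brain RNA than in dissociated cells, for 5 equal groups of protein-coding genes by gene span in kb (left) and for protein-coding genes and lncRNAs (right). The called-lower bar reaches 40% in the group of longest spans and 48.3% in lncRNAs.

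Csd, Br-c and nanos completed the 10 largest decreases by the naming rule (called, a mean of at least 20 CPM, no overlap between the assays and a gene symbol). Csd, the primary signal of female sex in honeybees, had 2.67 and 2.89 CPM in queen, 0.796 and 0.568 in nurse and 1.09 and 0.49 in forager whole brains and 64.4 and 67.8 CPM in queen, 78.7 and 95.1 in nurse and 64.7 and 63.2 in forager cells (-5.97 ± 0.13, adjusted p = 1.7e-11). Its paralogue Fem stood at -1.21 ± 0.098, and reads of the pair may be shared. Br-c, a transcription factor of the ecdysone response, had 10.3 to 21.3 CPM in whole brain and 276 to 414 CPM in cells (-4.39 ± 0.12), and nanos, a translational repressor, had 12.2 to 17.5 CPM in whole brain and 199 to 394 CPM in cells (-4.17 ± 0.09). With the span trend removed, 8 of the 10 stayed in that group and nAChRa6 and nAChRa7 gave way to mblk-1 and Para.

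Glial markers were higher in whole brain RNA, all 11 of them. Tsf1, an iron-binding transferrin, had 17185 and 19823 CPM in queen, 5734 and 5316 in nurse and 7664 and 8926 in forager whole brains, against 80.6 and 134 CPM in queen, 75.7 and 62.1 in nurse and 70.5 and 95.6 in forager cells, and Idgf4, a secreted chitinase-like growth factor, had 6852 and 6041 CPM in queen, 2801 and 3246 in nurse and 3506 and 4210.0 in forager whole brains, against 35.9 and 34.9 CPM in queen, 77.1 and 76.9 in nurse and 55.7 and 91.3 in forager cells. Their log2 folds were 6.8 ± 0.201, adjusted p = 8.69e-11 and 6.17 ± 0.16, adjusted p = 4.61e-11. The transcription factor repo, which marks glial nuclei in insects, moved by less, with 311 and 218 CPM in queen, 275 and 364 in nurse and 270.4 and 441 in forager whole brains and 94.02 and 53.1 CPM in queen, 72.4 and 115 in nurse and 71.6 and 119 in forager cells (1.84 ± 0.21, adjusted p = 6.57e-06).

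Between these stood wrapper, a surface protein of cortex glia in Drosophila (5.601 ± 0.11), the engulfment adaptor ced-6 (5.15 ± 0.16), glutamine synthetase GlnS (4.67 ± 0.16), the exchanger zyd (4.596 ± 0.13), collagen vkg (3.19 ± 0.39), the trehalose transporter Tret1 (2.59 ± 0.21), ebony (2.58 ± 0.21) and the glutamate transporter Eaat-1 (1.13 ± 0.06). The summed level of the list was 17125 to 32979 CPM in whole brain libraries and 605 to 1360.2 CPM in cell libraries. The gene ebony was the 1 member whose assays overlapped. Eaat-1 lost its call when Mrjp1 to Mrjp9 counted in the totals. The study named these genes on the same cells, and Tsf1 is also made by insect fat body, whose own list was called higher as described below, and its part in the value was not tested.

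Genes for clearing transmitters were shifted likewise. Gat-1B, which takes up GABA, had 209 and 182 CPM in queen, 458 and 388 in nurse and 383 and 391 in forager whole brains, against 3.35 and 2.75 CPM in queen, 11.5 and 16.03 in nurse and 10.8 and 12.5 in forager cells, and the glutamate transporter Eaat-2 had 173 and 143 CPM in queen, 397 and 372 in nurse and 621 and 485 in forager whole brains, against 5.803 and 4.12 CPM in queen, 9.86 and 19.8 in nurse and 13.8 and 15.5 in forager cells. Their log2 folds were 5.33 ± 0.12, adjusted p = 1.7e-11 and 4.97 ± 0.19, adjusted p = 4.56e-10, and Gat-a stood at 4.503 ± 0.102. Of the 5 genes of the list, 4 were called higher, GlnS among them, with only the dopamine transporter not called.

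Eye genes were higher in whole brain than in cells. All 6 photoreceptor members were called higher with no overlap between assays and a median of 4.16. Lop1, the long-wavelength opsin of the compound eye, had 814 and 719 CPM in queen, 287 and 433 in nurse and 459.7 and 1274 in forager whole brains, against 22.4 and 26.5 CPM in queen, 28.2 and 42.7 in nurse and 25.9 and 27.7 in forager cells (4.44 ± 0.25, adjusted p = 1.14e-08). The ocellar opsin Lop2 (5.59 ± 0.61), the blue opsin Blop (4.27 ± 0.11), the channel trp (4.06 ± 0.34), the myosin ninaC (2.45 ± 0.204) and the ultraviolet opsin Uvop (1.95 ± 0.29) went the same way. Whether retina was trimmed from the sequenced brains is not given in the sources used here.

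Genes of fat body and hemolymph had some of the largest shifts. All 7 were called higher, with a median of 6.44. Vg, the yolk protein vitellogenin (linkage group 4, 5029485 to 5035661), had 66108 and 57842 CPM in queen, 108 and 751 in nurse and 54.8 and 74.5 in forager whole brains, against 65.2 and 11.95 CPM in queen, 0.859 and 0.491 in nurse and 1.03 and 0.483 in forager cells. Queens were highest in both assays, and worker whole brains overlapped queen cells, so the assays are distinct only within castes (8.79 ± 0.67, adjusted p = 1.62e-07). The study also reports vg transcripts in ensheathing glia, a glial subtype, of queen brains, from its single cells and from in situ hybridization. The parts of glia and of fat body in the Vg values were not tested. The storage protein Hex70a had 196 and 394 CPM in queen, 102 and 453 in nurse and 9.94 and 16.7 in forager whole brains and 1.31 and 1.198 CPM in queen, 0.333 and 0.317 in nurse and 0.615 and 0.872 in forager cells (7.26 ± 0.41, adjusted p = 1.22e-08). Vhdl, a lipoprotein, was called at 1.09 ± 0.31 but lost that call without any one of 9 libraries (0.65 to 1.16 without them), and Hex110 stood at 2.02 ± 0.301. The summed level of the list was 252 to 68336 CPM in whole brain libraries and 11.99 to 94.4 CPM in cell libraries.

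Antimicrobial and immune genes, which fat body and blood cells make, were higher too, all 6 with a median of 8.35. Def1, a defensin, had 6598 and 7058 CPM in queen, 4914 and 3018 in nurse and 1041 and 3373 in forager whole brains, against 41.8 and 45.4 CPM in queen, 3.69 and 8.31 in nurse and 2.33 and 3.15 in forager cells (8.77 ± 0.39, adjusted p = 1.74e-09). Apid1, an apidaecin, had 4674 and 2493 CPM in queen, 14.6 and 22.1 in nurse and 560.3 and 729 in forager whole brains, against 7.98 and 41.3 CPM in queen, 0.0888 and 0.127 in nurse and 0.0651 and 0.0934 in forager cells (9.18 ± 0.49, adjusted p = 6.63e-09). In both assays the queen libraries held the highest values of Apid1. The gene abaecin stood at 8.43 ± 0.42, IRP30 at 8.27 ± 0.61 and hymenoptaecin at 6.54 ± 0.56, and Def2, at 1.63 ± 0.48, lost its call without any one of 9 libraries (1.08 to 1.72 without them). Def1 was the 1 gene of the 6 whose assays did not overlap over all castes.

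Blood cell markers moved less, with hml at 1.91 ± 0.19, the prophenoloxidase PPO at 2.93 ± 0.24 and the ferritin chain Fer2LCH at 1.56 ± 0.08, all 3 called higher. The list summed to 1009.3 to 1286 CPM in whole brain libraries and 329 to 412 CPM in cell libraries. Of 7 troponin genes 5 were called higher, led by TpnI (6.25 ± 0.28) and TpnT (4.69 ± 0.19), whose products regulate muscle contraction, and TpnCIIIb was called lower (-2.32 ± 0.18).

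The list for the hypopharyngeal gland held 3 tested genes, Hbg3, AGLU2 and Hbg2, all called higher in whole brain, with a median of 3.01. The lowest log2 fold among them was 2.07. Glucose oxidase and alpha-amylase genes were planned as members but could be sought by symbol only. None was found, and genes given by number would have been missed. Whether AGLU2 and Hbg2 mark this gland was not tested. Hbg3, an alpha-glucosidase of the hypopharyngeal gland that turns nectar to honey, had 651 and 953 CPM in queen, 1976 and 3309.7 in nurse and 16495 and 19704 in forager whole brains, against 15.4 and 18.8 CPM in queen, 13.1 and 47.2 in nurse and 31.5 and 31.1 in forager cells (7.06 ± 0.35, adjusted p = 3.9e-09). Foragers were far above nurses and queens in whole brain, while in cells their values lay within the range of the nurses. The royal jelly genes Mrjp1 to Mrjp9, which nurses secrete from this gland, took 0.00815% and 0.00867% of the matched counts in queen whole brains, 41.9% and 26.2% in nurses and 1.52% and 9.84% in foragers. In cells the same genes took 0.000253% and 0.00028% of UMIs in queens, 0.00603% and 0.00708% in nurses and 0.000324% and 0.00045% in foragers. Nurses were thus highest in both assays. Mrjp1 itself had 415243 and 214028 CPM in nurse whole brains and 29.3 and 34.1 CPM in nurse cells. Those genes entered no fit, and these shares carry no test.

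**Figure D3:**
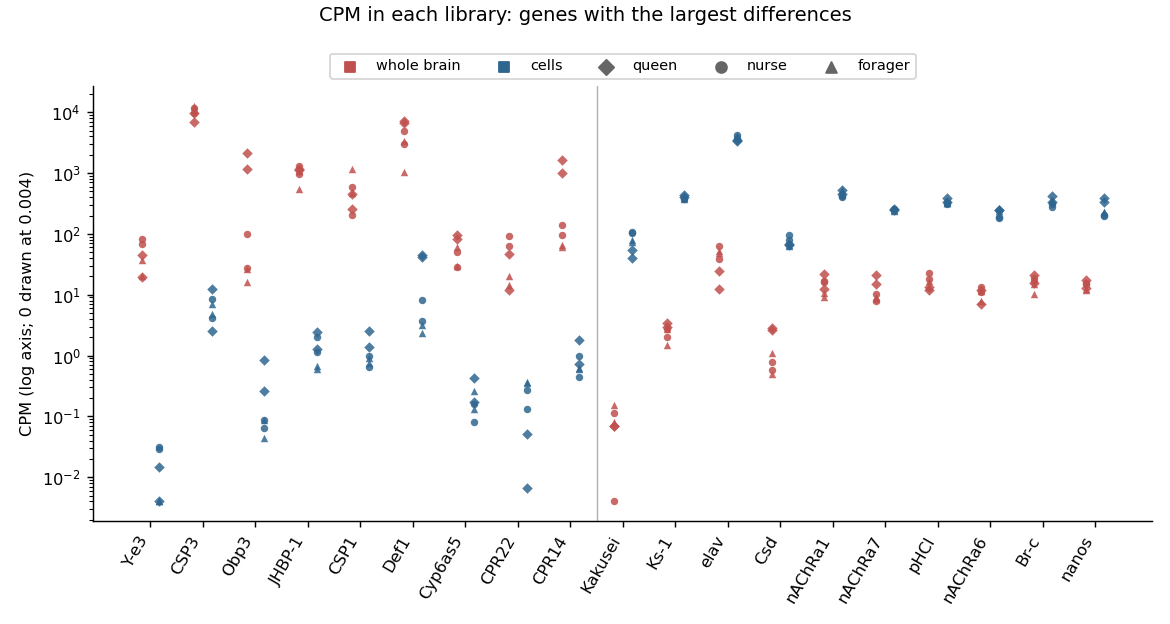
CPM on a log axis in every library for the named genes with the largest increases (left of the line) and decreases (right) in whole brain RNA (red) against dissociated cells (blue), with symbols for caste and a value of 0 drawn at 0.004. The 19 genes were chosen for having no overlap between red and blue points, so that separation is a condition of the choice. BBIP1, which had no UMI in cells, is not drawn.

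Carrier proteins of the chemosensory families were among the 10 largest increases by the naming rule. CSP3, a chemosensory protein, had 9841 and 6871 CPM in queen, 9763 and 11545 in nurse and 10760.1 and 12576 in forager whole brains, against 12.6 and 2.52 CPM in queen, 8.39 and 4.19 in nurse and 4.83 and 7.03 in forager cells (10.59 ± 0.49, adjusted p = 2.21e-09). CSP1 followed at 8.78 ± 0.42. Obp3, an odorant binding protein, had 1179 and 2095 CPM in queen, 27.6 and 101.1 in nurse and 15.9 and 26.3 in forager whole brains, against 0.847 and 0.26 CPM in queen, 0.0888 and 0.0634 in nurse and 0.0434 and 0.0856 in forager cells (9.84 ± 0.49, adjusted p = 3.74e-09), highest in queens in both, and its whole span is shared with another gene model. JHBP-1, named as a juvenile hormone binding protein, had 549 to 1289 CPM in whole brain and 0.607 to 2.43 CPM in cells (9.69 ± 0.29). Of 23 odorant binding and chemosensory genes 14 were called higher and none lower, with a median of 1.69.

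Y-e3, of the yellow family from which the royal jelly genes derive, had 45.2 and 19.3 CPM in queen, 81.5 and 68.9 in nurse and 37.1 and 20.01 in forager whole brains and 10 UMIs over the 6 cell libraries (12.36 ± 0.44). All 4 yellow genes were called higher. The cuticle genes CPR22 (8.03 ± 0.41) and CPR14 (8.01 ± 0.31) belonged to the largest increases, and 11 of 25 cuticle genes were called higher and none lower. Cyp6as5, a cytochrome P450, had 28.8 to 96.3 CPM in whole brain and 0.0814 to 0.42 CPM in cells (8.15 ± 0.32), and 6 of 7 enzymes of detoxification were called higher, with glutathione transferases GstD1 at 6.46 ± 0.18 and GstS1 at 5.68 ± 0.13. All 10 largest increases, BBIP1 included, stayed in that group when the span trend was removed.

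BBIP1 stood apart, with 77.4 and 61.4 CPM in queen, 84.6 and 98.98 in nurse and 107 and 99.3 in forager whole brains and 0 UMIs in all 6 cell libraries. Against a floor of 3 counts per library, the whole brain count was at least 3966-fold higher, which is a ratio of counts and not of RNA levels. Its gene model and that of LOC551163 share one span (linkage group 12, 3997366 to 4002345) and had the same expected count in every bulk library. Gstcd with Jtb and WRNexo with LOC726239 were further pairs of this kind, chosen after their values were seen, with 0 UMIs each. Of the matched genes, 17 had counts in whole brain and no UMI in any cell library. All matched genes had a count in whole brain, so the reverse could not be seen among them. Features without a bulk partner were outside this count. Shared spans moved with the absence of UMIs in those pairs. Reads that fit several gene models were shared out in bulk and left out of UMI counts, as described below. In those pairs a difference in RNA therefore cannot be told apart from the rule of counting. One such gene, LOC725025, shares no span and had a mean of 15.3 CPM in whole brain.

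The lists of ribosomal proteins and oxidative phosphorylation, which hold only the members found by symbol and not each whole class, held few calls. Of 7 cytosolic ribosomal proteins Rps14 alone was called, higher, at 1.02 ± 0.09, and it lost the call without any one of 6 libraries (0.96 to 0.998 without them). Of 8 nuclear genes for oxidative phosphorylation, Ndufs1 was called higher (1.89 ± 0.07) and Uqcr11 lower (-1.06 ± 0.12, lost without either of 2 libraries, at -0.99 and -0.96), with a median of -0.09. The heat shock gene Hsp90 had 949.9 and 1052 CPM in queen, 8629 and 3421 in nurse and 7079.9 and 5641 in forager whole brains and 1530.1 and 2146 CPM in queen, 4416 and 4511 in nurse and 3133 and 2971 in forager cells, and its log2 fold of 0.21 ± 0.203, adjusted p = 0.36 was not called. Of 5 heat shock genes 3 (60%) were called higher in whole brain, Hsp70-4 (1.76 ± 0.14), Hsc70-5 (1.18 ± 0.07) and Hsc70-3 (1.196 ± 0.11). The last pair was not called when Mrjp1 to Mrjp9 counted in the totals. Of 431 matched nuclear genes with the mitochondrial prefix, 100 (23.2%) were called higher and 49 (11.4%) lower, with a median of 0.14. The shares of all genes tested were 24.1% and 27.8%.

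Odorant receptors, with 13 of 30 called lower and 4 higher, had means of at most 7.28 CPM in whole brain, and the highest fold among them was that of Or107, at 0.91 to 8.24 CPM in whole brain and 0.0148 to 0.0333 CPM in cells (6.99 ± 0.29). Of 25 neuropeptide genes 4 (16%) were called higher and 7 (28%) lower, against 24.1% and 27.8% of all genes. Calls of Tachykinin, allatostatin A, allatostatin C, CAPA, allatotropin-like and ecdysis triggering hormone were lost under some alternatives. The adipokinetic hormone gene akh had 37.7 and 36.4 CPM in queen, 16.95 and 14.8 in nurse and 15.1 and 21.6 in forager whole brains and 2.69 and 2.78 CPM in queen, 2.92 and 3.14 in nurse and 2.02 and 3.14 in forager cells (2.99 ± 0.14, adjusted p = 3.03e-09). The corazonin gene Crz had 2.104 to 6.68 CPM in whole brain and 18.3 and 7.23 CPM in queen, 72.1 and 10.7 in nurse and 152 and 3.73 in forager cells, so replicates of one caste lay far apart in cells. Its log2 fold of -3.002 ± 0.8, adjusted p = 0.00433 lost the call without any one of 8 libraries (-3.09 to -2.35 without them).

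The design also asks whether a caste difference seen in whole brain is the one seen in cells. Between queens and the mean of nurses and foragers, 732 genes (6.59%) were called higher and 612 (5.51%) lower in whole brain, and 431 (3.88%) higher and 258 (2.32%) lower in cells. Of those genes, 206 were called in both, which is 15.3% of the whole brain calls and 29.9% of the cell calls, with the same sign in 172 and the opposite sign in 34. Over all tested genes the deviation of the queen mean from the mean of the 3 castes had a Pearson correlation of 0.245 between the assays, that of nurses 0.155 and that of foragers 0.225, while nurses in whole brain had 0.173 with foragers in cells. These values are across genes, which are not independent replicates, and deviations from one mean are not independent of each other.

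The difference of the differences was tested directly. The queen-worker log2 change was unequal between the assays in 1046 genes. The larger value was in whole brain in 601 (5.41% of genes tested) and in cells in 445 (4.01%). With Mrjp1 to Mrjp9 in the totals the split was 984 against 171. The count of unequal genes was 628 without the second queen whole brain library and 650 without the first queen cell library. In 775 of the 1046 the estimates had opposite signs in the assays, however small either estimate was. Those signs were not tested, and choosing genes for a large difference favours opposite signs. Over all genes tested, 34 were called between queens and workers in both assays with opposite signs. Below, a change is queen over workers on the log2 scale, and a difference is the change in whole brain minus that in cells.

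Of 25 neuropeptide genes, 3 were called with a lower and 1 with a higher queen-worker change in whole brain than in cells. Over all genes tested the shares were 4.01% and 5.41%. The gene prohormone-2 had 40.1 and 22.6 CPM in queen, 177 and 162 in nurse and 189 and 126 in forager whole brains, against 344 and 393 CPM in queen, 184 and 166 in nurse and 334 and 343 in forager cells. Queens were below nurses and foragers in whole brain and above nurses in cells, and the changes of -2.38 and 0.599 differed by -2.98 ± 0.302 (adjusted p = 9.1e-05). The gene prohormone-3 had 140.0 and 99.7 CPM in queen, 341 and 324 in nurse and 409 and 346 in forager whole brains, against 796 and 1044 CPM in queen, 596 and 674 in nurse and 991 and 1130.2 in forager cells, a difference of -1.73 ± 0.24 (adjusted p = 0.000571). The peptide gene orcokinin had 20.6 and 17.6 CPM in queen, 82.6 and 70.2 in nurse and 47.9 and 39.03 in forager whole brains, against 67.1 and 70.7 CPM in queen, 58.3 and 44.3 in nurse and 72.7 and 67.3 in forager cells, a difference of -1.795 ± 0.197 (adjusted p = 0.000152). Tachykinin (-1.1 in whole brain and -0.14 in cells) and prohormone-4 (-1.19 and -0.22) had adjusted p-values of 0.00488 and 0.00171 but differences under 1. The insulin-like peptide ILP-2 went the other way, with 20.6 and 30.2 CPM in queen, 8.19 and 7.96 in nurse and 11.3 and 8.003 in forager whole brains and 10.9 and 11.2 CPM in queen, 17.3 and 12.7 in nurse and 11.2 and 11.8 in forager cells, a difference of 1.77 ± 0.29 (adjusted p = 0.00148).

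Receptors, channels and adhesion genes of neurons that were called unequal had negative differences in 5 of 6 cases, against 445 of the 1046 genes called unequal. GluCl had 78.6 and 53.6 CPM in queen, 237 and 314 in nurse and 267 and 252 in forager whole brains, against 1774 and 1560.0 CPM in queen, 2047 and 1795 in nurse and 1966 and 1900.0 in forager cells, a difference of -1.805 ± 0.25 (adjusted p = 0.000605). TyrR (-1.74 ± 0.301), Oa1, an octopamine receptor (-1.18 ± 0.22), DopR2 (-1.06 ± 0.198) and NLG-4 (-1.62 ± 0.33) had negative differences. A positive one was found for nAChRa7 (1.01 ± 0.21). Without the second queen whole brain library the calls of these 5 genes were lost, with differences of -1.59 for TyrR, -0.91 for Oa1, -0.91 for DopR2, -1.36 for NLG-4 and 0.72 for nAChRa7. Other single libraries also ended the call of each except TyrR, with differences between -1.63 and 1.04 without them. These directions depend on the scaling: with Mrjp1 to Mrjp9 in the totals, the calls of TyrR (-1.42), Oa1 (-0.83), DopR2 (-0.72) and NLG-4 (-1.29) were lost, and DopR2 was also lost with TMM factors and in DESeq2.

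**Figure D4:**
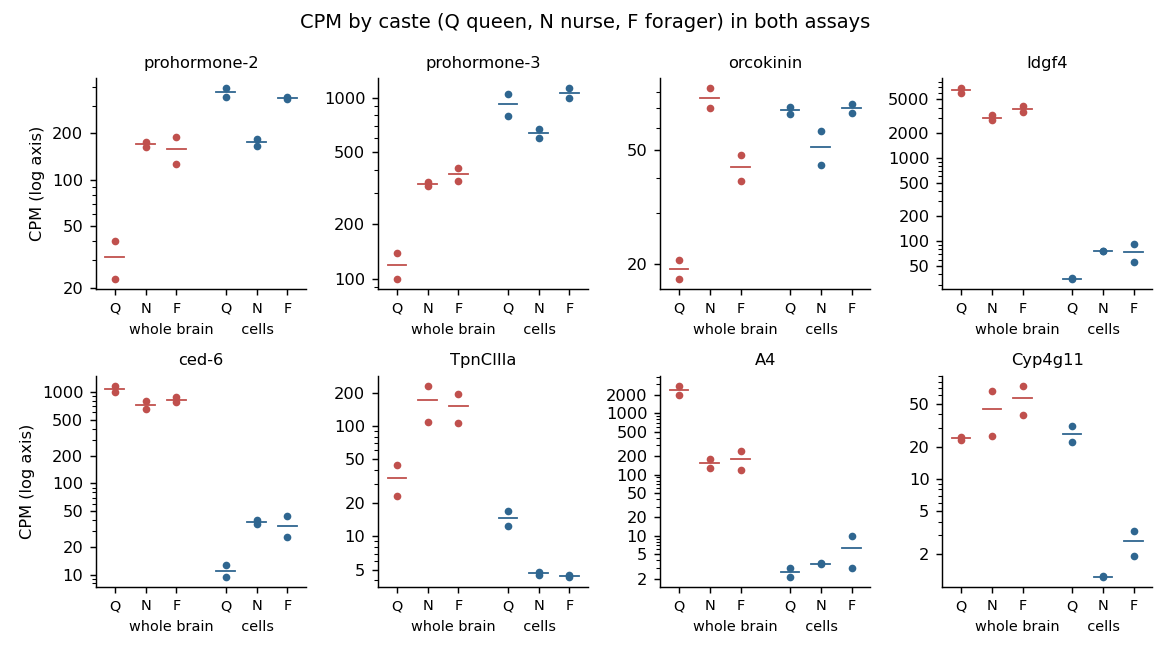
CPM on log axes of 8 genes in queens (Q), nurses (N) and foragers (F), with a point for each library and a line at the mean of the pair, for whole brain RNA (red, left) and dissociated cells (blue, right). Prohormone-2, prohormone-3 and orcokinin are lowest in queens in whole brain only, and Idgf4 and ced-6 are highest in queens in whole brain and lowest in queens in cells.

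Glial genes gave the opposite pattern in 3 of 11 members, called with positive differences, against 5.41% of all genes tested. Queens exceeded workers in whole brain and fell below them in cells for Idgf4, with a change of 0.92 in whole brain and -1.09 in cells, a difference of 2.004 ± 0.28 (adjusted p = 0.000643), on the library values given above. The gene ced-6 had 1178 and 996 CPM in queen, 649 and 792 in nurse and 884 and 775 in forager whole brains, against 12.6 and 9.41 CPM in queen, 35.99 and 40.2 in nurse and 25.6 and 43.5 in forager cells, a difference of 2.21 ± 0.296 (adjusted p = 0.000482). Tret1 had 3003 and 3215 CPM in queen, 771 and 1096 in nurse and 1311 and 1125 in forager whole brains, against 199 and 144 CPM in queen, 270.1 and 390.2 in nurse and 170.4 and 397 in forager cells, a difference of 2.38 ± 0.43 (adjusted p = 0.00265). Its call was lost without the second queen library of either assay (2.17 and 2.33 without them). The GABA transporter Gat-1B was lower in queens in both, with changes of -1.05 in whole brain and -2.05 in cells, a difference of 1.004 ± 0.21 (adjusted p = 0.00584) whose call was lost without any one of 9 libraries (0.87 to 1.15 without them). The glial repo changed by -0.35 in whole brain and -0.36 in cells.

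Of 7 troponin genes, 4 were called with negative differences and none with a positive one, against 4.01% and 5.41% of all genes tested. TpnCIIIa had 43.9 and 23.1 CPM in queen, 109 and 231 in nurse and 196 and 106 in forager whole brains, against 16.9 and 12.3 CPM in queen, 4.79 and 4.47 in nurse and 4.29 and 4.49 in forager cells, with queens lowest in whole brain and highest in cells, a difference of -3.95 ± 0.49 (adjusted p = 0.000297). TpnT had 19.8 and 19.5 CPM in queen, 51.2 and 68.3 in nurse and 28.5 and 22.5 in forager whole brains, against 5.62 and 3.8998 CPM in queen, 0.452 and 0.832 in nurse and 0.47 and 0.662 in forager cells, a difference of -3.97 ± 0.36 (adjusted p = 4.52e-05). TpnCI (-1.45 ± 0.196) and TpnCIIIb (-2.03 ± 0.39) were also called, TpnCIIIb not without the second queen whole brain library (-1.65) or the first queen cell library (-1.92). Its call was also lost with Mrjp1 to Mrjp9 in the totals (-1.69).

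Genes of fat body, cuticle and metabolism differed in both directions. The gene A4, of an apolipophorin-like hemolymph protein, had 1976 and 2836 CPM in queen, 128 and 180.0 in nurse and 121 and 239 in forager whole brains, against 2.98 and 2.12 CPM in queen, 3.52 and 3.53 in nurse and 2.92 and 9.76 in forager cells, with queens above workers in whole brain and not in cells, a difference of 4.74 ± 0.61 (adjusted p = 0.000412). Cyp4g11, a cytochrome P450, had 24.8 and 23.04 CPM in queen, 25.1 and 65.1 in nurse and 73.6 and 38.95 in forager whole brains, against 30.8 and 21.8 CPM in queen, 1.25 and 1.23 in nurse and 1.94 and 3.32 in forager cells, a difference of -4.94 ± 0.54 (adjusted p = 0.000149). GstD1 (2.67 ± 0.33), CPR14 (2.99 ± 0.52), svp (1.93 ± 0.297), vsx1 (-1.202 ± 0.198), Obp12 (-2.89 ± 0.62) and Hex110 (-2.81 ± 0.63) were called too. The calls were lost without any one of 10 libraries for Hex110 (-2.93 to -2.67 without them) and 9 for Obp12 (-3.21 to -2.60), and without the second queen whole brain library for CPR14 (2.59) and vsx1 (-1.05). With Mrjp1 to Mrjp9 in the totals, the calls of Hex110 (-2.52), Obp12 (-2.56) and vsx1 (-0.87) were lost. Hex110 was also lost with TMM factors (-2.75), and Hex110 (-2.82) and CPR14 (2.87) with UMI sums thinned to bulk depth. The replicate block ended the calls of Hex110 (-2.62) and Obp12 (-2.90).

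Vg was not among the genes called. Its change was 8.54 in whole brain and 5.75 in cells, and the difference of 2.79 ± 1.06 (adjusted p = 0.0693) did not pass. The changes of the antimicrobial genes were 5.22 in whole brain and 9.203 in cells for IRP30 and 5.04 and 8.04 for Apid1, with differences of -3.99 ± 0.997 (adjusted p = 0.0131) and -2.997 ± 0.83 (adjusted p = 0.0201), neither called.

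**Figure D5:**
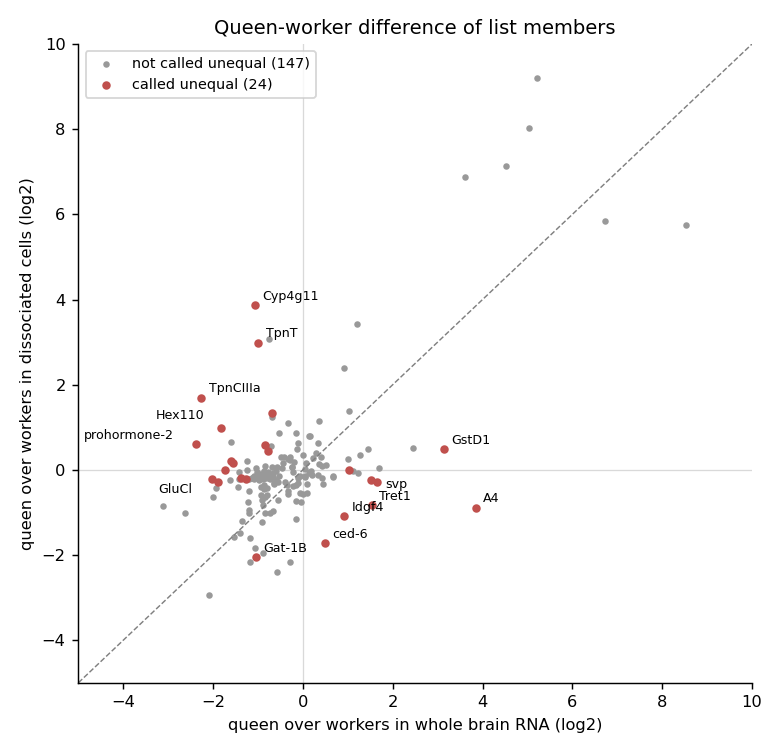
Queen over workers (log2) in whole brain RNA (x axis) and in dissociated cells (y axis) for 171 list members with a mean of at least 1 CPM in each assay, red for the 24 called unequal between the assays, some of them named, and grey for the other 147. The dashed line marks equal changes, and the red points lie to both sides of it.

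The 10 largest unequal queen-worker differences, taken among called genes with a mean of at least 20 CPM whether or not the assays overlapped, were all of genes with no symbol in the annotation, given here by number. LOC406093 (linkage group 6, 15024551 to 15025504) had 2.104 and 18.6 CPM in queen, 70481 and 36308 in nurse and 22434 and 30749 in forager whole brains, against 3.21 and 2.78 CPM in queen, 17.98 and 26.6 in nurse and 27.2 and 17.9 in forager cells, a difference of -8.93 ± 0.98 (adjusted p = 0.000152). LOC406081 had 0.21 and 2.396 CPM in queen, 19156 and 15102 in nurse and 6037 and 13508 in forager whole brains, against 0.207 and 0.231 CPM in queen, 1.79 and 2.42 in nurse and 4.58 and 2.49 in forager cells, a difference of -9.64 ± 0.93 (adjusted p = 6.5e-05). In both genes queens were near 0 and workers high in whole brain, and workers were also above queens in cells, at far lower levels. LOC102655185 (-11.604 ± 0.84), LOC406114 (-9.92 ± 0.7), LOC411186 (-7.22 ± 0.92) and LOC551044 (-5.92 ± 1.02) were negative as well. Higher in queens in whole brain were LOC107964258 (7.898 ± 1.32), LOC102654766 (7.77 ± 1.83), LOC107963996 (7.46 ± 0.76) and LOC100576555 (5.91 ± 0.26). The call was lost without any one of 10 libraries for LOC102654766 (7.28 to 11.3 without them), without the first nurse or the first forager cell library for LOC107964258 (6.47 and 6.49) and without the second queen whole brain library for LOC551044 (-5.57). With UMI sums thinned to bulk depth, LOC406081 (-9.43), LOC107964258 (9.82), LOC102654766 (8.77) and LOC551044 (-5.47) were not called. LOC102654766 was also lost with TMM factors (7.83), the replicate block (7.93) and all barcodes (7.95). Of the 10 genes, 4 share their whole span with another gene model. The genes high in nurse and forager whole brains moved with the gland products above, whose part in these values was not tested.

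Between foragers and nurses few genes were called in either assay. In whole brain 5 (0.045%) were higher and 6 (0.054%) lower, and in cells 2 (0.018%) were called, both higher. The forager-nurse change was unequal between the assays in 1 gene, LOC100576555, with 26.2 and 22.3 CPM in foragers and 2.05 and 3.79 CPM in nurses in whole brain, against 1.47 and 1.58 CPM in foragers and 1.95 and 2.702 CPM in nurses in cells. Its difference was 3.64, larger in whole brain, and 0.00901% of genes were called in that direction and 0% in the other. Without adjustment, 1601 genes (14.4%) had p under 0.05, and DESeq2 called 100 at the same thresholds. No gene was called without the first forager whole brain library, either queen cell library, the second nurse cell library or either forager cell library, and 2 to 6 were without each of the other whole brain libraries.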

How the data were processed

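Bulk libraries of 6 pools of whole brains and 10X 3′ libraries of 6 pools of dissociated brains were compared. For the bulk table, the authors trimmed reads with Trimmomatic 0.39, aligned them with STAR to Amel_HAv3.1 and deposited RSEM expected counts per gene, which were rounded to whole numbers here. For the cells, the authors deposited UMI counts per feature and barcode from Cell Ranger 3.1.0, which were summed per library over the kept barcodes. Median UMIs per kept barcode were 4718 to 5971, and at most 217 barcodes were shared between any pair of libraries. No doublet caller was run. Bulk reads that fit several gene models are shared out by RSEM, while ambiguous reads are left out of UMI counts in Cell Ranger. Fragment counts grow with transcript length and 3′ UMIs do not.

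The 12 libraries were fitted together in edgeR 4.0.16 (R 4.3.3) with 6 groups of assay and caste, plain totals over the matched genes without Mrjp1 to Mrjp9 in place of normalization factors, filterByExpr, and two-sided quasi-likelihood tests with Benjamini-Hochberg adjustment over 11101 genes. Calls took the study's bulk thresholds, an adjusted p under 0.01 and a log2 fold over 1 in size. The test was checked on simulated data of 11041 genes, where 199 of 200 genes changed by 2 on the log2 scale were recovered with 1 false call. Those counts were drawn from the fitted model with its own spread estimates and, outside the changed genes, the same mean for both assays. Few genes were changed in them, against 51.9% called in the data. The check therefore covers the running of the test, and not whether the model fits both assays. With 2 samples a group, p-values measure the spread between pools. Alternatives were TMM factors, totals without mitochondrial-prefix features or with Mrjp genes, DESeq2 1.42.0, no filter, a replicate block, other barcode filters, UMI sums thinned to bulk depth, removal of the lowess trend of the fold on log2 gene span, and leaving out each library. Floors and shares cover counting error only.

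Named genes were the 10 largest folds each way among called genes with a mean of at least 20 CPM, no overlap and a known name, members of the gene lists, and the 10 largest unequal caste differences of each test. A known name was read as a symbol or a name in the study's marker table, since gene descriptions were not used here. List members planned by description were likewise sought by symbol. Such lists therefore lack genes given only by number. The members and lists were chosen with earlier results of these data known. The lists of nicotinic and amine receptors, adhesion proteins, transmitter uptake, detoxification, the yellow family and mitochondrial-prefix genes were made after the files were seen. No gene or protein sequences were used.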

Additional observations from a re-analysis of the deposited data

Results flagged for a closer look

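The log2 fold of whole brain over cells differed between queens and workers by the test of the difference in the genes below, given as queens minus workers. It was lower in queens for LOC102655185 (-11.60), LOC406114 (-9.92), LOC406081 (-9.64), LOC406093 (-8.93), LOC411186 (-7.22) and LOC551044 (-5.92), which have no symbol. Among list members it was lower in queens for the peptide genes prohormone-2 (-2.98), orcokinin (-1.80) and prohormone-3 (-1.73), the troponins TpnT (-3.97), TpnCIIIa (-3.95), TpnCIIIb (-2.03) and TpnCI (-1.45), and Cyp4g11 (-4.94), Obp12 (-2.89), Hex110 (-2.81), GluCl (-1.80), TyrR (-1.74), NLG-4 (-1.62), vsx1 (-1.20), Oa1 (-1.18) and DopR2 (-1.06).

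A larger fold in queens was found for LOC107964258 (7.90), LOC102654766 (7.77), LOC107963996 (7.46) and LOC100576555 (5.91) and, among list members, for A4 (4.74), CPR14 (2.99), GstD1 (2.67), Tret1 (2.38), ced-6 (2.21), Idgf4 (2.004), svp (1.93), ILP-2 (1.77), nAChRa7 (1.01) and Gat-1B (1.004). Between foragers and nurses, LOC100576555 alone differed, by 3.64, foragers minus nurses.

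Outside the matched genes, cell libraries held UMIs on features that have no partner in the bulk table. Their share of all UMIs was 6.07% and 4.36% in queens, 5.04% and 5.78% in nurses and 4.74% and 5.96% in foragers. Genes of the mitochondrial genome took 2.68% to 3.82% and other features with the mitochondrial prefix 1.54% to 2.97%, so these made up most of the share. Such transcripts have no whole brain value here.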

How the results depend on the processing

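Between whole brain and cells, 2311 to 2893 genes were called higher and 2672 to 3668 lower over all alternatives, and with the span trend removed the calls were 2885 higher and 2672 lower. Counting the Mrjp genes gave 38.7% of the calls higher, against 46.4% without them. Leaving out each library in turn gave 2602 to 2665 higher and 2961 to 3131 lower. The count of unequal queen-worker changes was 628 to 1002 without each library, lowest without the second queen whole brain library and 650 without the first queen cell library, and 1462 in DESeq2. Unequal forager-nurse changes numbered 3 with TMM factors, 4 with Mrjp genes in the totals, 100 in DESeq2, 0 after thinning and 0 to 6 without each library. The cause was not tested.

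Over the genes named, folds between assays, called or not, stayed on the same side of the thresholds in 5567 cases over the alternatives, lost a call in 123, gained one in 75 and turned in 4, and queen-worker differences kept their call in 723 cases and lost it in 116. The fold turned to 0.48 for FoxP, 0.10 for 5-HT2beta and 0.060 for Nrx-1 with the span trend removed, and to -0.13 for CPR2 without the first queen whole brain library, within a range of -0.13 to 2.56 without each library. Same-numbered samples of the assays had deviations correlated at 0.029 in queens, 0.014 in nurses and 0.069 in foragers. Differences between the assays could hide a shared origin, so such low values do not decide whether the numbers pair the samples. The study describes its bulk samples as corresponding to those of the single cells. With the replicate block, 2618 genes were higher, 3026 lower, and 858 and 1 had unequal queen-worker and forager-nurse changes. The 17 genes without a UMI became 18 with the study's upper limit on UMIs and 13 with all barcodes, filters whose use for this count was decided after seeing the data. Depth limits the bulk side most, at 8790000 to 14256559 counts a library. The correlation of caste deviations kept its sign in each caste under TMM factors and over genes of at least 20 CPM.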

Other observations

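Of genes outside the lists, Jhe and Camkii were chosen after their values were seen. Jhe, which breaks down juvenile hormone, had 438 and 592 CPM in queen, 20.7 and 55.8 in nurse and 11.96 and 12.6 in forager whole brains, against 5.44 to 9.52 CPM in the cell libraries. Its queen-worker change was 4.57 on the log2 scale in whole brain and -0.31 in cells, and its whole span is shared with another gene model. Camkii, the calcium-dependent kinase of synapses, had 343 to 489.96 CPM in whole brain and 6613 to 7930.4 CPM in cells, a log2 fold of -4.11, with the assays far apart in every caste.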
